A study of Mus musculus with 4 samples.

Results

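The circadian clock genes examined here were Clock, Npas2, Per1, Per2, Per3, Cry1, Cry2, Nr1d1, Nr1d2 and Dbp, in heart and skeletal muscle of mice with a conditional deletion of Sod2, the gene of the mitochondrial superoxide dismutase MnSOD. The members were fixed by name, and every probe set that the platform annotation gives to 1 of these symbols was taken, which made 23 of 45037 probe sets and 10 of 18193 named genes. The study hybridised 1 array to each of 4 RNA samples, which were d/d and f/f heart and d/d and f/f muscle. The d/d mice came from a cross of MnSOD flox homozygotes with MCK-Cre transgenics, whose Cre is expressed in muscle tissues, and are del/del for the gene in heart and muscle. The f/f mice are flox/flox controls, so both genotypes descend from the same floxed allele. Sod2 signal was lower in d/d on 4 of 4 probe sets in heart, with log2 differences from -1.22 to -0.21, and on 3 of 4 in muscle, from -0.44 to 0.06. The brightest Sod2 probe set differed by -0.27 in heart and 0.06 in muscle, both less than the spread between probe sets given below. Whether the 4 probe sets read the deleted exons is not stated in the labels. Cells of the tissue that do not express the MCK-Cre transgene are also in the RNA. The labels give no age, sex, number of animals, name of the muscle or time of day of collection, so the position of each array in the daily cycle is not known here.

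The clock is a feedback loop of transcription. CLOCK, or its relative NPAS2, pairs with BMAL1 (Arntl) and activates genes through E-box sequences. Among these are the Per and Cry genes, whose proteins return to the nucleus and repress the activators, the Nr1d genes, whose REV-ERB proteins repress Arntl, Clock, Npas2 and Nfil3, and Dbp, an output factor that binds D-box sequences. In heart and muscle the loop drives daily rhythms of metabolic genes, and the transcripts of the activators and of the REV-ERB and DBP group are high at opposite times of the day. Each value below is a linear signal after the arrays were brought to the same 2% trimmed mean. Signals at or under 7.51, which is the 40th percentile averaged over the arrays, were treated as being at the floor. Differences are log2 values of d/d minus f/f, and the probe set of highest average log2 signal stands for its gene. With 1 array per group no error between animals can be given. As a technical yardstick, probe sets of the same gene differed in their log2 difference with an SD of 0.388 for 5375 genes in heart and 0.400 for 5207 genes in muscle.

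The promoters of 4 members are shown because Per1 and Cry1 were the members that differed by 2-fold or more in 1 tissue, Nr1d1 was lower in d/d heart, and Per3 carries the element that DBP binds. Each is the 250 bases before an annotated start in RefSeq on GRCm38.p6, in the direction of transcription, with motif matches in capitals and positions counted back from the start. The Per1 window lies at chr11:69098699-69098948 on the plus strand, inside the Per1 gene as RefSeq bounds it, the Cry1 window at chr10:85185055-85185304, the Nr1d1 window at chr11:98775378-98775627 and the Per3 window at chr4:151044666-151044915, these 3 on the minus strand.
Per1: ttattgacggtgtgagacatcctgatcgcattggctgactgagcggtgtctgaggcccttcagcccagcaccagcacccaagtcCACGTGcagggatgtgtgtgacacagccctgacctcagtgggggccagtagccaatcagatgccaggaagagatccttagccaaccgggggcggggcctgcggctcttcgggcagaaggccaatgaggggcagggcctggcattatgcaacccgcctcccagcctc
Cry1: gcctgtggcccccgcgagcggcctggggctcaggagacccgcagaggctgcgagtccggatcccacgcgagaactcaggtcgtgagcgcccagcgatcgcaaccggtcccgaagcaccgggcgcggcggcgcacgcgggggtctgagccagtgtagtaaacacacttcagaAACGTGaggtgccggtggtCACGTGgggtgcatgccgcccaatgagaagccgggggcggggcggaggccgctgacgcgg
Nr1d1: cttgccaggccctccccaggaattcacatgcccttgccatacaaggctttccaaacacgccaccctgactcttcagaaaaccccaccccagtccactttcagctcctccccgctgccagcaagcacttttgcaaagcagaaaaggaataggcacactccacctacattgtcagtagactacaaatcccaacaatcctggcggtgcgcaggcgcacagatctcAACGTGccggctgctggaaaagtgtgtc
Per3: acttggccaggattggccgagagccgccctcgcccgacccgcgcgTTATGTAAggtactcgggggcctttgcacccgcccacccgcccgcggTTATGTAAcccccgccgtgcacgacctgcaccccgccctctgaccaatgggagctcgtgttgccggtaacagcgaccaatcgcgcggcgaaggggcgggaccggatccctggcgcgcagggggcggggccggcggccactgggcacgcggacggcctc
Of the 10 members, 9 had windows, 12 in all, and 5 motifs were searched on both strands. The E-box CACGTG was found in 2 of the 12 windows, those of Per1 (-166 to -161) and Cry1 (-60 to -55) printed above, against 6.02% of all 32851 windows of this length. CACGTT, a variant E-box, was found in the windows of Cry1, Cry2 and Nr1d1, at 1 place in each, against 3.85% of all windows. The D-box words TTATGTAA and TTACGTAA were found in 1 window, that of Per3, which held 2 copies, against 0.931% of all. TAGGTCA and TGGGTCA, the core of the element shared by ROR and REV-ERB, and the cAMP response element TGACGTCA were found in 0 of the 12 windows, against 5.38% and 1.55% of all. A match is a description of these letters only.

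The 10 members did not all differ in the same direction in either tissue. In d/d heart Cry1, Per2 and Per1 were higher and Nr1d1, Npas2 and Cry2 lower, while the 6 probe sets of Per3 were split. In d/d muscle Per1 and Per2 were higher and Clock lower, and the 2 dim probe sets of Npas2 disagreed. By their brightest probe sets the other members differed there by less than the spread between probe sets. In heart 4 of 10 members lay above 0 and 6 below, with a median of -0.20, beside -0.05 over all 13836 genes measured there. In muscle 8 of 10 lay above 0, with a median of 0.14, beside -0.003 over all 14256 genes measured. Past 2-fold and higher in d/d were 1 of 10 members in heart, Cry1, against 3.94% of all genes, and 1 of 10 in muscle, Per1, against 2.64%. Past 2-fold and lower were 0 members in heart, against 4.22%, and 0 in muscle, against 3.25%. A count of 1 is the smallest above 0 that 10 genes can give, so neither count stands apart from the background. By probe set, 9 of 23 were higher and 14 lower in d/d heart, with 2 past 2-fold higher, against 3.8% of all probe sets, and 0 lower, against 4.51%. In d/d muscle 18 of 22 measured probe sets were higher and 4 lower, with 2 past 2-fold higher, against 3.04%, and 0 lower, against 3.28%. At 1.5-fold, 3 members were higher and 1 lower in d/d heart, against 11.2% and 13.3% of all genes, and 2 were higher and 1 lower in d/d muscle, against 9.06% and 10.8%.

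**Figure D1:**
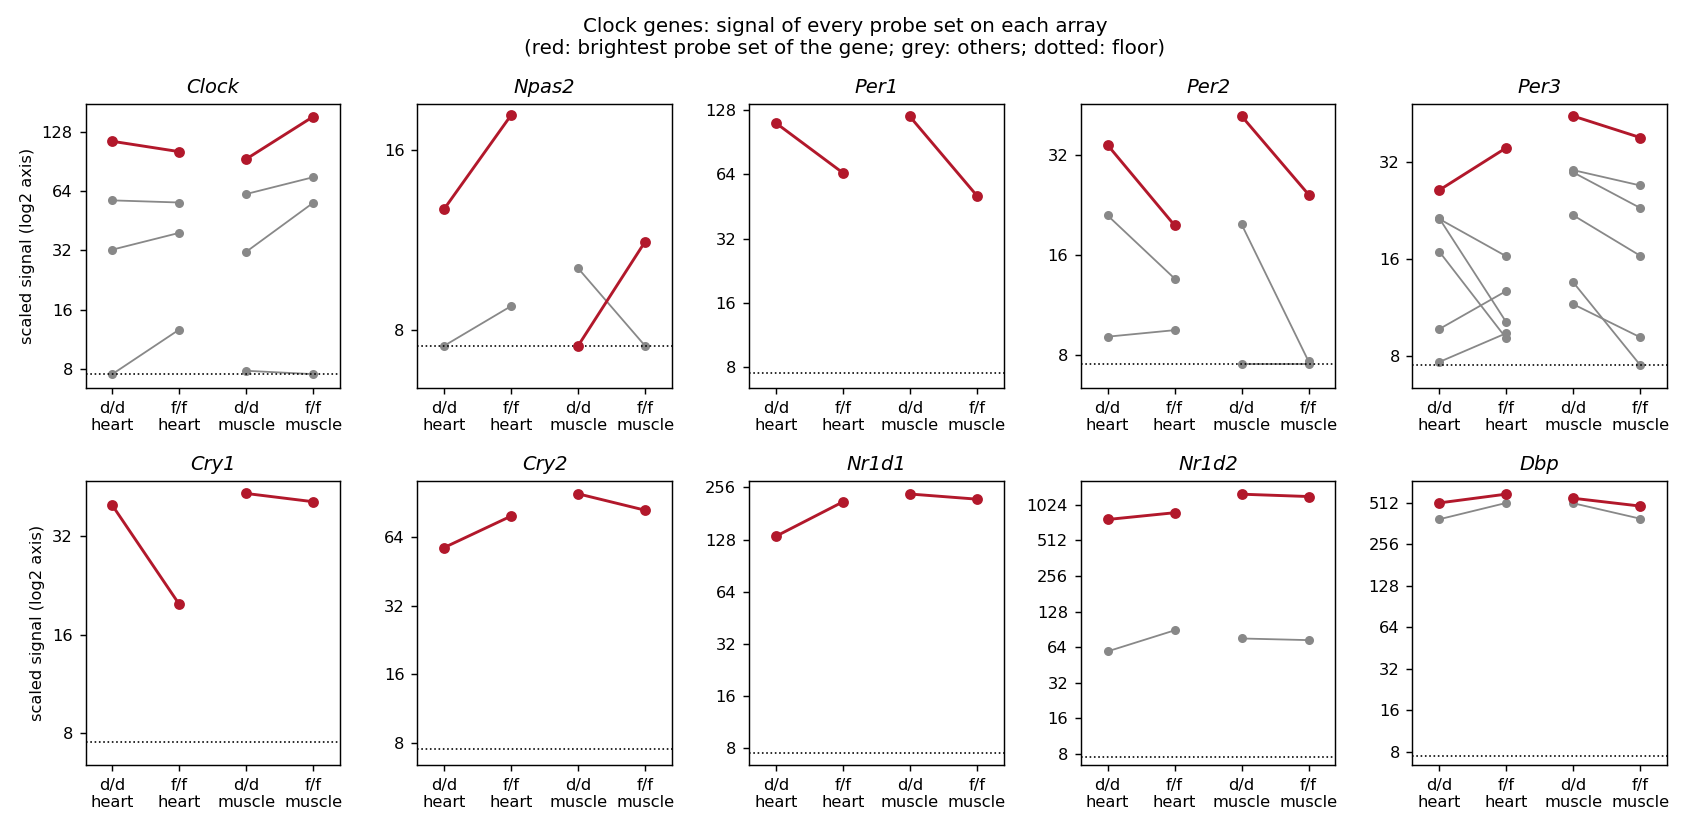
Scaled signal (log2 axis) of every probe set of the 10 clock genes on the d/d and f/f arrays of heart and muscle, 1 array each, with lines joining the d/d and f/f arrays of a tissue. Per1 and the brightest probe set of Per2 stand higher in d/d in both tissues, Cry1 is higher in d/d heart than in f/f heart but near equal in muscle, and Clock is lower in d/d muscle than in f/f muscle.

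Clock encodes the activator that gives the loop its name. On its brightest probe set the signal was 115 in d/d heart against 102 in f/f heart, and 93.3 in d/d muscle against 153 in f/f muscle. The second read 57.4 in d/d heart against 56.0 in f/f heart, and 61.9 in d/d muscle against 75.4 in f/f muscle. The third read 32.3 in d/d heart against 39.3 in f/f heart, and 31.5 in d/d muscle against 55.9 in f/f muscle. All 3 were thus lower in d/d muscle than in f/f muscle, and the f/f muscle array was the highest of the 4 on each. The log2 differences in muscle were -0.72, -0.28 and -0.83, and in heart they were 0.18, 0.04 and -0.28, which is within the spread between probe sets. The fourth probe set was dim, with the floor in d/d heart against 12.7 in f/f heart, and 7.81 in d/d muscle against the floor in f/f muscle.

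Npas2, the relative of Clock, was the dimmest member. Its brighter probe set read 12.7 in d/d heart against 18.3 in f/f heart, a difference of -0.52. In muscle it was at the floor in d/d and read 11.2 in f/f, at least 1.49-fold lower in d/d. The other probe set, at the floor in d/d heart against 8.76 in f/f heart, ran the other way in muscle, with 10.1 in d/d and the floor in f/f. The probe sets therefore disagree in direction in muscle, at signals close to the floor.

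Of the repressors, Per1 and Per2, which respond to light, hormones and feeding as well as to the loop itself, were higher in d/d in both tissues. Per1, on its 1 probe set, read 111 in d/d heart against 65.0 in f/f heart, and 119 in d/d muscle against 50.9 in f/f muscle. Both d/d arrays were thus above both f/f arrays. The differences were 0.78 in heart, 1.71-fold, with 6.80% of measured genes more raised, and 1.23 in muscle, 2.35-fold, with 1.19% more raised.

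The brightest probe set of Per2 read 34.2 in d/d heart against 19.6 in f/f heart, and 41.8 in d/d muscle against 24.3 in f/f muscle. The second read 21.0 in d/d heart against 13.6 in f/f heart, and 19.8 in d/d muscle against 7.67 in f/f muscle, just above the floor. On both, each d/d array was above each f/f array. The differences of the brightest were 0.80 in heart and 0.78 in muscle, and those of the second 0.63 and 1.37. The third probe set read 9.10 in d/d heart against 9.52 in f/f heart, and neither muscle array was above the floor.

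Per3, which is less needed for the rhythm than the other Per genes, had 6 probe sets that did not agree in heart. The brightest read 26.2 in d/d heart against 35.4 in f/f heart, a difference of -0.44, and 44.3 in d/d muscle against 38.0 in f/f muscle, a difference of 0.22. Another 2 were also lower in d/d heart, with differences of -0.39 and -0.30, at signals of 7.69 to 12.8. The remaining ones were higher in d/d heart, at 21.3 against 16.3 in f/f heart, 16.9 against 9.10, and 21.4 against 10.2, with differences of 0.38, 0.89 and 1.07. With the median log2 signal of the 6 probe sets taken on each array in place of the brightest, the arrays differed by 0.73 in heart. That value is a difference of medians and not the median of the 6 differences. No direction can therefore be given for Per3 in heart. In muscle all 6 were higher in d/d, by 0.16 to 0.85, where the largest is a bound because f/f muscle was not above the floor.

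Cry1, the stronger and later repressor of the pair, read 39.8 in d/d heart against 19.8 in f/f heart, and 43.2 in d/d muscle against 40.8 in f/f muscle. The f/f heart array was the low one, and the other arrays lay close together. The difference was 1.01 in heart, 2.01-fold, with 3.87% of measured genes more raised, and 0.08 in muscle. It rests on 1 probe set and passed 2-fold under 5 of 7 other settings, with 0.95 in the values as deposited and 0.64 with an offset of 16 in place of the floor. Cry2 read 57.4 in d/d heart against 78.8 in f/f heart, and 98.6 in d/d muscle against 83.6 in f/f muscle. The cryptochromes thus ran in opposite directions in heart, with a difference of -0.46 for Cry2, and in muscle the difference of 0.24 for Cry2 was within the spread between probe sets.

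The REV-ERB genes, Nr1d1 and Nr1d2, code for haem-binding repressors of the activator genes. Nr1d1 read 134 in d/d heart against 211 in f/f heart, and 235 in d/d muscle against 219 in f/f muscle. The d/d heart array was the low one of the 4. The difference was -0.66 in heart, 1.58-fold lower, with 10.7% of measured genes more lowered, and 0.10 in muscle. Nr1d2 read 769 in d/d heart against 877 in f/f heart on its bright probe set, and 1258 in d/d muscle against 1202 in f/f muscle. On its dim one it read 58.9 in d/d heart against 88.7 in f/f heart, and 75.7 in d/d muscle against 73.3 in f/f muscle. The differences were -0.19 and -0.59 in heart and 0.07 and 0.05 in muscle.

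Dbp, the output factor, was the member that varied least, with a range of 0.29 over the 4 arrays on its brighter probe set. It read 510 in d/d heart against 591 in f/f heart, and 552 in d/d muscle against 484 in f/f muscle. The other probe set read 389 in d/d heart against 510 in f/f heart, and 508 in d/d muscle against 392 in f/f muscle. Both were lower in d/d heart, by -0.21 and -0.39, and higher in d/d muscle, by 0.19 and 0.37. Of these only the -0.39 was larger than the spread between probe sets.

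**Figure D2:**
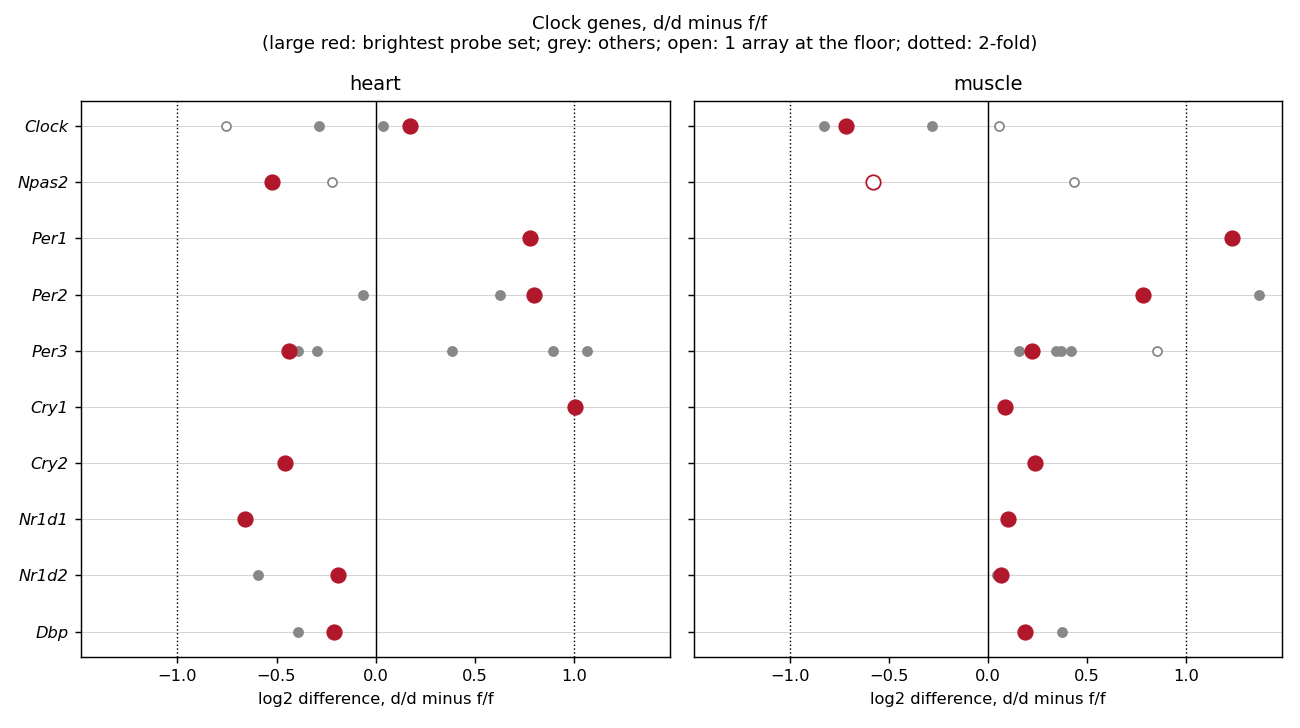
Log2 difference, d/d minus f/f, of every probe set of the 10 clock genes in heart (left) and muscle (right), with 1 row per gene, large points for its brightest probe set, open points where 1 array was at the floor, and dotted lines at 2-fold. The large points lie between -0.66 and 1.01 in heart and between -0.72 and 1.23 in muscle, and the 6 probe sets of Per3 fall on both sides of 0 in heart.

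The tissues were then set against each other. Higher in d/d in both were 3 members, Per1, Per2 and Cry1, the last near 0 in muscle, and lower in both was 1, Npas2, by its brighter probe set. The other 6 had opposite signs. Over all 12711 genes measured in both tissues 48.5% had the same sign, beside 40% of the members. The difference in heart minus that in muscle was 0.92 for Cry1 and 0.89 for Clock, and -0.76 for Nr1d1, -0.70 for Cry2 and -0.66 for Per3. The value of Per3 is that of its brightest probe set, and its 6 probe sets ran from -1.15 to 0.70 with 3 above 0. That of Clock is also from its brightest probe set, and its others gave 0.54, 0.32 and, near the floor, -0.81. By the brightest probe sets, these 5 of 10 exceeded 0.557, the spread between probe sets combined over the tissues, against 38.1% of all genes. In this measure 0 of the 10 passed 2-fold, against 16.2% of all genes, and 5 passed 1.5-fold, against 36.2%. Dimmer probe sets of Dbp, Nr1d2 and Per2 gave -0.77, -0.64 and -0.74, so which members exceeded 0.557 depends on the probe set. By arm, the activators Clock and Npas2 had opposite signs in heart, 0.18 and -0.52, and a median of -0.65 in muscle. The Npas2 value in that median is a bound at the floor. The other probe set of Npas2, also a bound, had the opposite sign in muscle, 0.43. The median was 0.78 in both tissues for the Per genes, with Per3 apart from the other 2 in heart, and 0.27 in heart and 0.16 in muscle for the Cry genes, which had opposite signs in heart. It was -0.42 in heart and 0.08 in muscle for the REV-ERB genes, and Dbp stood at -0.21 in heart and 0.19 in muscle. With 4 arrays the difference between the tissues cannot be tested, since no residual degree of freedom is left.

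A mean genotype effect across both tissues could be fitted with limma, with tissue as a block and 1 residual degree of freedom, over 13497 genes. Per1 had an average effect of 1.003 (SE 0.28) and Per2 of 0.79 (SE 0.26), the largest among the members, and both had a limma adjusted p of 0.9998 over all genes. In this fit 0 of 10 members and 0% of all genes passed an adjusted p of 0.05. At an unadjusted p of 0.05, 2 of 10 members passed, Per1 and Per2, against 4.22% of all genes. Npas2 had an average of -0.55 (SE 0.26) and Cry1 of 0.54 (SE 0.32), and the other members lay between -0.28 and -0.01. For Npas2, d/d muscle entered at the floor, so its effect and SE depend on the floor chosen. Under other settings its difference in muscle ran from -2.39 to -0.07. An effect that differs between the tissues counts as error in this fit. Its SE and p values therefore do not give the spread between animals. Whether heart and muscle of a genotype came from the same mouse is not in the labels.

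Other genes of the clock were taken from a list of 14 entries, of which 11 were on the arrays. BMAL1 is the partner of CLOCK, and its gene Arntl read 32.3 in d/d heart against 28.2 in f/f heart, and 49.9 in d/d muscle against 83.0 in f/f muscle on its brighter probe set. The differences were 0.19 in heart and -0.73 in muscle, close to those of Clock, and in muscle both probe sets were lower in d/d, the dim one by -0.16. In heart the dim one was at the floor in d/d against 15.6 in f/f, which is the opposite direction. Nfil3, a repressor at D-boxes that REV-ERB represses, read 21.8 in d/d heart against 19.2 in f/f heart, and 30.8 in d/d muscle against 54.0 in f/f muscle, a difference of -0.81 in muscle. Arntl2 was at the floor on 3 arrays and read 16.2 in f/f muscle, at least 2.15-fold lower in d/d muscle.

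Of the relatives of Dbp, Hlf was higher in d/d muscle on both probe sets and Tef on 3 of 3, though by unequal amounts. Hlf read 64.4 in d/d heart against 84.2 in f/f heart, and 53.1 in d/d muscle against 36.7 in f/f muscle, and its other probe set differed by -0.36 in heart and 1.70 in muscle. The brightest probe set of Tef differed by 0.18 in heart and 0.35 in muscle, and the others by -0.02 and at least 1.15 in heart and by 0.82 and 0.03 in muscle. Ciart, a repressor of CLOCK and BMAL1 also known as CHRONO, read 70.5 in d/d heart against 58.8 in f/f heart, and 74.2 in d/d muscle against 38.3 in f/f muscle, 1.94-fold higher. Bhlhe40, which competes for E-boxes, read 345 in d/d heart against 209 in f/f heart, a difference of 0.73, and differed by -0.12 in muscle. Its relative Bhlhe41 differed by -0.53 in heart and 0.64 in muscle, at signals of 12.6 to 20.8. The activating receptor Rora differed by 0.47 in heart and -0.12 in muscle on the brightest of 9 probe sets, the others lying on both sides of 0 in each tissue, Rorb by 0.33 and -0.28 at low signal, and Timeless, a relative of the fly clock gene, by 0.38 and -0.33. Of this list 0 of 10 measured genes passed 2-fold in heart and 1 of 11 in muscle, Arntl2, which is near the 8.16% and 5.89% of all genes. The medians were 0.23 in heart and -0.12 in muscle.

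Kinases and ubiquitin ligases set the pace of the loop by marking PER and CRY proteins. The list read here also holds Nono and Sirt1, which are neither kinases nor ubiquitin ligases. Of 13 genes on the arrays, 0 of 13 measured in heart and 0 of 12 measured in muscle passed 2-fold in either direction, near the 8.16% and 5.89% of all genes. The medians were -0.13 and -0.01. Btrc, a ligase subunit that recognises PER proteins, had the largest difference in heart, at 51.0 in d/d heart against 95.1 in f/f heart, -0.90, with -0.46 in muscle. The other Btrc probe set above the floor on all 4 arrays differed by -0.09 in heart and -0.45 in muscle. In muscle the largest were -0.87 for Prkaa1, a catalytic subunit of AMP kinase, and 0.80 for Fbxl15, at signals of 12.0 to 42.2. Csnk1d and Csnk1e, the casein kinases of the clock, differed by 0.31 and -0.29 in heart and by -0.25 and 0.35 in muscle.

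Among output genes with known daily rhythms, 15 were measured in both tissues. In heart 11 of 15 were below 0, with a median of -0.20, beside 54.6% of all genes below 0, and in muscle 4 of 15 were below 0, with a median of 0.22, beside 50.4% of all genes. Usp2, a deubiquitinase driven through E-boxes, read 200 in d/d heart against 436 in f/f heart and 546 in d/d muscle against 471 in f/f muscle, 2.18-fold lower in heart. Nampt, the rate-limiting enzyme of NAD salvage, read 305 in d/d heart against 566 in f/f heart and 486 in d/d muscle against 466 in f/f muscle, and all 3 of its probe sets were lower in d/d heart. The kinase Mylk4 differed by -0.96 in heart and 0.34 in muscle, the stress gene Herpud1 by -0.68 and 0.37, and Klf15, a regulator of amino acid and lipid use, by -0.60 and 0.44. Pdk4, which turns off pyruvate dehydrogenase, read 1235 in d/d heart against 2766 in f/f heart, 2.24-fold lower, and was also lower in d/d muscle, by -1.82. Lonrf3 was at least 2.54-fold higher in d/d heart, at 19.1 against the floor, and 2.98-fold higher in d/d muscle, where its other probe set differed by 0.03. With the floor at the 60th percentile its difference in heart was 0.01. In heart 1 of 15 was past 2-fold higher and 2 lower, against 3.94% and 4.22% of all genes, and in muscle 1 was higher and 1 lower, against 2.64% and 3.25%.

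**Figure D3:**
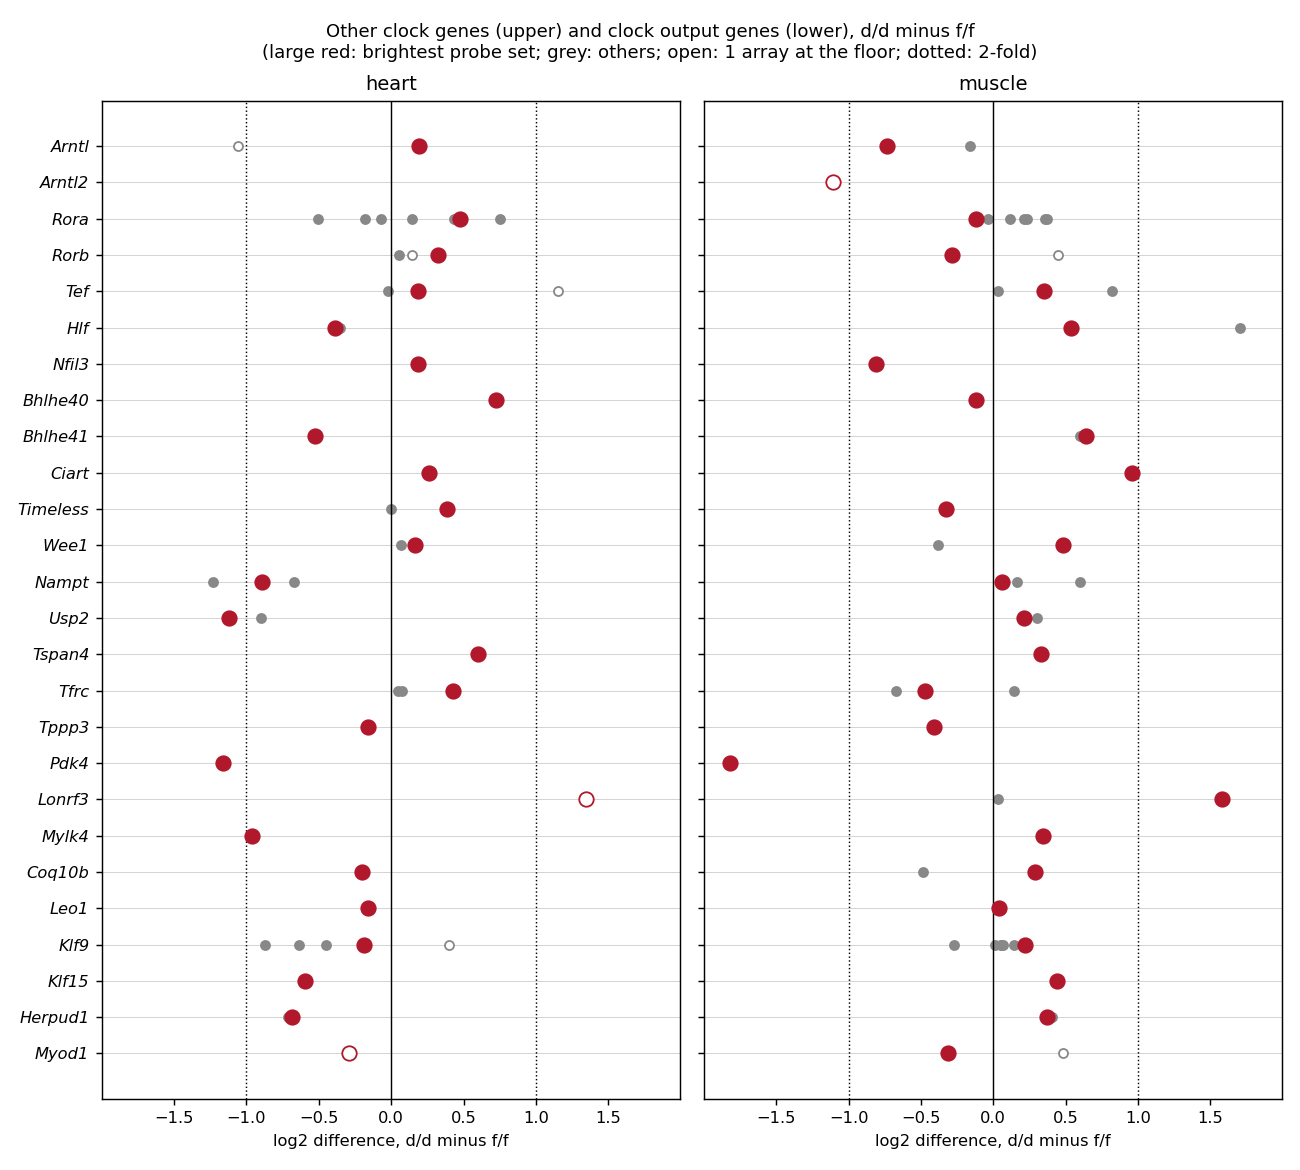
Log2 difference, d/d minus f/f, of every probe set of the other clock genes (upper rows, Arntl to Timeless) and of the clock output genes (lower rows, Wee1 to Myod1) in heart (left) and muscle (right), with large points for the brightest probe set and open points where 1 array was at the floor. By the large points Arntl, Arntl2 and Nfil3 lie left of 0 and Hlf, Tef and Ciart right of 0 in muscle, while Nampt, Usp2, Mylk4, Klf15 and Herpud1 lie left of 0 in heart and right of 0 in muscle.

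Per1 also answers to glucocorticoids and to the CREB pathway, so lists of both were read beside it. Of 18 glucocorticoid-responsive genes, 2 passed 2-fold higher in heart, against 3.94% of all genes, and the same 2 in muscle, against 2.64%, and 0 passed lower in either, against 4.22% and 3.25%. These were Cebpd, a transcription factor of acute responses, at 223 in d/d heart against 99.0 in f/f heart and 241 in d/d muscle against 83.5 in f/f muscle, and Ddit4, an inhibitor of mTOR signalling, at 199 in d/d heart against 91.7 in f/f heart and 174 in d/d muscle against 62.4 in f/f muscle. The other probe set of Cebpd, at low signal, was at least 2.13-fold higher in d/d heart and differed by -0.22 in muscle. Fkbp5, a chaperone of the glucocorticoid receptor, differed by 0.74 in heart and 0.69 in muscle. The kinase Sgk1 differed by 0.40 and 0.65, while Zbtb16 differed by -0.54 and -0.05. In heart 10 of the 18 were below 0, near the 54.6% of all genes, with a median of -0.05. In muscle 5 of the 18 were below 0, beside 50.4% of all genes, with a median of 0.23. Of 14 immediate early genes, 11 of 13 measured in muscle were below 0, beside 50.4% of all genes, with a median of -0.69. In heart 8 of 14 were below 0, near the 54.6% of all genes, with a median of -0.10. Past 2-fold were 2 higher and 1 lower in heart, against 3.94% and 4.22% of all genes, and 0 higher and 4 lower in muscle, against 2.64% and 3.25%. Fos, a subunit of AP-1, read 42.4 in d/d heart against 197 in f/f heart and 52.1 in d/d muscle against 171 in f/f muscle. Junb, Egr1 and Atf3 also passed 2-fold lower in muscle, and Egr2 and Nr4a3 passed 2-fold higher in heart, at 3.58-fold and 2.27-fold. The value of Egr2 is that of its brighter probe set, which differed by 0.61 in muscle. The other probe set of Egr2 read 16.7 in both d/d heart and f/f heart, and differed by -0.85 in muscle. What part these pathways have in the Per1 difference was not tested.

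Levels in heart and in muscle were compared within each genotype, for each probe set with itself, as heart minus muscle. In d/d mice 0 of 10 members passed 2-fold in either direction, against 25.6% of all genes, and 8 of 10 were lower in heart, with a median of -0.20, beside 0.01 over all genes. Of all genes 15.1% were past 2-fold higher and 10.5% lower in d/d heart. In f/f mice 1 of 10 passed, against 20.4% of all genes, and it was lower in heart, against 8.3%, with 0 higher, against 12.1%, and a median of -0.10, beside 0.08. At 1.5-fold 1 member was higher and 4 lower in d/d heart, against 26.1% and 21.9%, and 1 was higher and 2 lower in f/f heart, against 24.5% and 17.9%. The one that passed was Cry1, at 19.8 in f/f heart against 40.8 in f/f muscle, while in d/d mice it read 39.8 in heart against 43.2 in muscle. Nr1d1 read 134 in d/d heart against 235 in d/d muscle, a difference of -0.81, and 211 in f/f heart against 219 in f/f muscle, a difference of -0.05. Nr1d2 on its bright probe set differed by -0.71 in d/d and -0.46 in f/f, and in f/f its dim probe set had the opposite sign. Clock differed by 0.30 in d/d and by -0.59 in f/f. Of the other clock genes Rora was lower in heart, by -1.57 in d/d and -2.16 in f/f, with a limma adjusted p of 0.0166 for tissue, and the 10 members had adjusted p values of 0.12 or more in that fit, in which 13.6% of all genes passed 0.05. Without adjustment 1 member passed, Npas2, whose d/d muscle value is the floor, against 32.1% of all genes. In the values as deposited the median of all genes shifted by 0.44 in d/d and 0.40 in f/f and those of the members became 0.26 and 0.34, so these signs depend on the scaling. The genotype and the tissue comparisons use the same 4 arrays and are not independent.

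**Figure D4:**
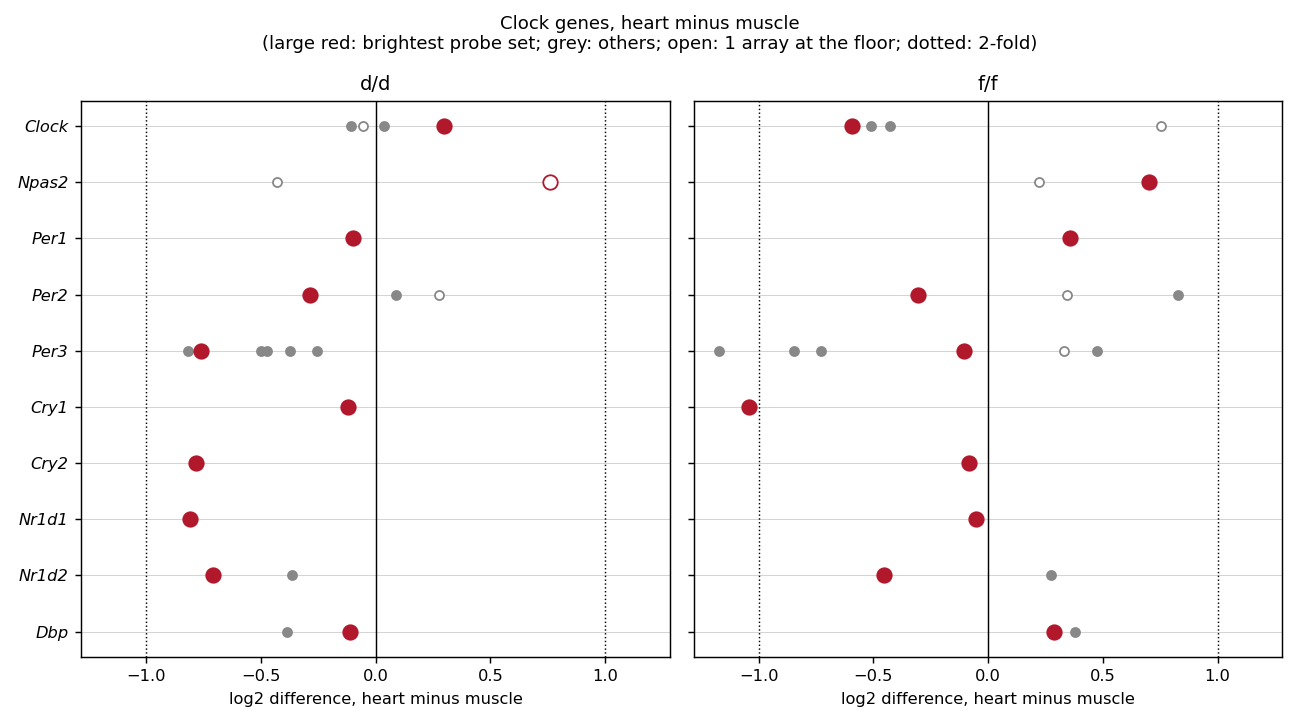
Log2 difference, heart minus muscle, of every probe set of the 10 clock genes in d/d (left) and f/f (right) mice, with large points for the brightest probe set, open points where 1 array was at the floor, and dotted lines at 2-fold. The large points lie between -0.81 and 0.76 in d/d, all inside 2-fold, and between -1.04 and 0.70 in f/f, with Cry1 past 2-fold.

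The member with the widest range over the 4 arrays was Npas2, at 1.28 on the log2 scale with its floor value. The genes whose log2 signals, centred on their own mean, lay nearest to it by Euclidean distance over the 4 arrays were Wrnip1, Tmem181a and Zfp36, among 10538 genes above the floor on all 4 arrays. Since d/d muscle enters the Npas2 profile as the floor and not as a measured level, this order depends on the floor chosen.

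Markers of the tissues followed the labels. The 6 cardiomyocyte markers summed to 26855 in d/d heart against 30316 in f/f heart, with 2381 in d/d muscle and 2687 in f/f muscle. In heart 5 of these 6 were below 0, with Ryr2 2.24-fold lower in d/d. The 6 skeletal fibre markers summed to 55172 in d/d muscle and 50916 in f/f muscle, and to 8776 in d/d heart against 5795 in f/f heart. The rise in heart was carried by Acta1, at 4668 in d/d against 1499 in f/f, while 3 of the 4 measured there were below 0. Of the cardiomyocyte markers 2 of 6 were at the floor in both muscles, and the 4 measured there were lower in d/d muscle, with a median of -1.39 and 3 past 2-fold, a difference that the sums, carried by Actc1, do not show. Tnni3 read 8.30 in d/d muscle against 86.8 in f/f muscle, the most lowered of the 14256 genes. Sums of the other marker lists differed between the genotypes by unequal amounts. The 6 fibroblast markers summed to 8248 in d/d heart against 4940 in f/f heart, with 5 of 6 above 0, and to 4082 in d/d muscle against 6575 in f/f muscle, with 6 of 6 below 0. The 5 slow fibre markers summed to 15692 in d/d heart against 13126 in f/f heart, with 4 of 5 below 0 and the rise carried by Myh7 at 3953 against 1140, and to 1572 in d/d muscle against 1980 in f/f muscle, with 4 of 5 below 0. Of these, Myh7, Tnnc1 and Myl3 were higher in f/f heart than in f/f muscle, by 3.41, 4.53 and 2.15. Tnni1 and Tnnt1 were lower in f/f heart, by -1.87 and -0.22. In heart the Myh7 difference therefore cannot be read as a change in slow fibres. The 6 macrophage markers summed to 1792 in d/d heart against 1202 in f/f heart and 522 in d/d muscle against 797 in f/f muscle, and the 5 endothelial markers to 1276 in d/d heart against 934 in f/f heart and 527 in d/d muscle against 548 in f/f muscle. All fibroblast, macrophage and endothelial markers were above the floor on all 4 arrays. Of the adipocyte markers 3 of 5 were on the arrays and only 1, Adipoq, was above the floor, at 10.4 in d/d heart against 46.6 in f/f heart and 40.5 in d/d muscle against 93.4 in f/f muscle. Of the red cell markers 2 of 3 were on the arrays and summed to 81.7 in d/d heart against 89.1 in f/f heart and to 50.8 in d/d muscle against 44.2 in f/f muscle. In bulk tissue fewer cells of a type and less RNA per cell cannot be told apart, and the part of these cells in the clock gene differences was not tested. The ratio of 3' to 5' signal was 1.37 in d/d heart against 1.40 in f/f heart for Actb and 0.90 against 0.85 for Gapdh, and 1.11 in d/d muscle against 1.11 in f/f muscle for Actb and 0.85 against 0.87 for Gapdh, so it differed little between the arrays of a tissue.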

How the data were processed

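Expression was measured on 4 oligonucleotide arrays, 1 per group, with groups taken from the titles and the tissue label. The deposited values are 1 linear intensity per probe set, and how the authors scaled them is not stated in the sources at hand. Of 45037 probe sets besides 64 controls, 34945 had 1 gene symbol, 932 had several and 9160 none in the platform annotation. Symbols were looked up by Entrez id in a RefSeq table, which changed 0. Arrays were scaled to the same 2% trimmed mean, signals were floored at 7.51 and log2 was taken, and 58.0% to 61.1% of probe sets per array lay above the floor. A gene counted as measured when either array of the pair was above the floor, and as past 2-fold when the higher one was. The averaged genotype and tissue effects were fitted with limma 3.58.1 in R 4.3.3, with Benjamini-Hochberg adjustment, on genes with 2 or more arrays above the floor. Figures and counts used Python 3.11.15. The scripts were checked on simulated data. Members, lists and the naming rule (all members with all probe sets, all other clock genes, and from other lists genes past 2-fold) were chosen with earlier results of these data known. From those lists Btrc, Prkaa1, Fbxl15, Csnk1d, Csnk1e, Nampt, Mylk4, Herpud1, Klf15, Fkbp5, Sgk1 and Zbtb16 were named after their values were seen. Other settings tried were no scaling, quantile normalization, scaling on a median, other floors, an offset, the median over probe sets, probe sets without shared sequence, and 1.5-fold. Precision is limited by the number of arrays.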

Additional observations from a re-analysis of the deposited data

Results flagged for a closer look

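Of 36 genes examined on the member, other clock and output lists, 3 differed in opposite directions in heart and muscle by more than the spread between probe sets in each tissue, and none of them was a member. The share of all genes that meet this rule was not computed, so these counts cannot be set against a background. Opposite signs of any size were found in 6548 of 12711 genes measured in both tissues. Bhlhe41 differed by -0.53 in heart and 0.64 in muscle, -1.17 in heart minus muscle. Klf15 differed by -0.60 in heart and 0.44 in muscle, -1.04 in heart minus muscle. Tfrc, the transferrin receptor, differed by 0.43 in heart and -0.47 in muscle, 0.90 in heart minus muscle, on its brightest probe set. Its other probe sets differed by 0.04 and 0.07 in heart, within the spread between probe sets, and by -0.67 and 0.14 in muscle. The opposite directions of Tfrc thus rest on 1 probe set. The difference between the tissues was not tested, since each rests on 1 array per group.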

How the results depend on the processing

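Under other settings 121 values of the main results stayed within the limits set for them and 24 moved. The member median in heart was -0.20, and -0.39 once probe sets with possible shared sequence were dropped, which leaves Cry1 none. The count higher in heart, 1, became 0 in the values as deposited, with an offset of 16 and without those probe sets, and the count in muscle, 1, became 2 with the median over probe sets, where Per2 joined. With the floor at the 20th percentile 1 member, Npas2, passed 2-fold lower in muscle, at -2.39, 1 passed in heart minus muscle of the genotype differences, and 1 passed higher in heart in d/d. At 1.5-fold 3 members were higher and 1 lower in heart, against 11.2% and 13.3% of all genes, 2 were higher and 1 lower in muscle, against 9.06% and 10.8%, and 5 differed between the tissues. At 1.5-fold, heart minus muscle gave 1 higher and 4 lower in d/d and 1 higher and 2 lower in f/f. In the values as deposited those tissue medians became 0.26 in d/d and 0.34 in f/f, against -0.20 and -0.10, with 1 gene higher and 0 lower in f/f. The d/d median was -0.39 once those probe sets were dropped, and the f/f count lower was 0 there and with the offset. Arntl, lower in f/f heart than in f/f muscle by -1.56, read 0.27 without those probe sets, on a dim one. Per1 passed 2-fold in muscle under 8 of 8 settings, at 1.02 to 1.26, and 0 members passed an adjusted p of 0.05 under any, with limma adjusted p values of 0.91 or more, while the members past an unadjusted p of 0.05 numbered 1 with the floor at the 20th percentile, against 2. No paired analysis was possible because the labels carry no replicate numbers, and the limma fit already compares the genotypes within each tissue. The cause of these shifts was not tested.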
